A study of Mus musculus with 2 samples.

Results

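Neutrophils and monocytes find their way through receptors for chemokines and other attractants, and 9 genes for such receptors were read out in granulocyte-monocyte progenitors (GMPs) of tumor-bearing mice. The genes were Cxcr2, Cxcr4, Ccr1, Ccrl2, Fpr1, Fpr2, C5ar1, C3ar1 and Ltb4r1. They were taken by symbol from the 24421 symbols in the deposited tables. No rule on measured values was used, but the choice was made with earlier results of these data known. All 9 symbols were found, and 8 of them had a mean RPKM (reads normalized to transcript length and library size) of at least 1, the minimum set for a gene to be tested. The exception was C3ar1.

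GMPs are the bone marrow progenitors that give rise to granulocytes and monocytes, and they were purified by flow cytometry directly from marrow. The non-tumor-bearing control group (NTB-GMP) consisted of female mice without a tumor. The second group (4T1-GMP) consisted of female mice with an orthotopic implant of the mouse mammary carcinoma line 4T1. For both groups the labels give the same background, an F1 that is semi-syngeneic to the tumor (H-2b/d), and name no further allele or agent, whereas the study's methods describe 4T1 implants in BALB/c mice. Mice were 8 to 12 weeks old, an age set for every experiment. The time after implantation and whether marrow of several mice was pooled were not given in the sources used here. Each group was 1 library of total RNA. There were therefore no replicates, no value below has a replicate check, and no test between the groups exists. "Higher" and "lower" refer to these 2 libraries, and tumor and library cannot be told apart.

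The 9 receptors are G protein-coupled receptors or close relatives of them. Signalling receptors of this kind act mainly through inhibitory G proteins, whose beta-gamma subunits activate phosphoinositide 3-kinase gamma and turn a gradient outside the cell into movement. In marrow, Cxcr4 and its ligand Cxcl12 are known for holding progenitors and neutrophils in place, while Cxcr2, the receptor of Cxcl1, Cxcl2 and Cxcl5, is known for neutrophil exit. Ccr1 binds inflammatory CC chemokines, Fpr1 and Fpr2 bind formylated peptides from bacteria and mitochondria, C5ar1 and C3ar1 bind complement fragments, and Ltb4r1 binds leukotriene B4. Ccrl2 is an atypical receptor that binds chemerin and does not drive migration itself.

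In the GENCODE M21 annotation of GRCm38 (the same assembly as mm10, the build in the submitters' processing notes) all 9 genes are protein-coding and lie on 6 chromosomes. Cxcr2 is on the plus strand at chr1:74153989-74161246 and Cxcr4 on the minus strand at chr1:128588199-128592293. Ccr1 (chr9:123962124-123968692) and Ccrl2 (chr9:111054486-111057519) are both on the minus strand of chromosome 9. Fpr1 (chr17:17876471-17883940, minus strand) and Fpr2 (chr17:17887824-17893952, plus strand) are neighbours 3.88 kb apart. C5ar1 lies at chr7:16246743-16259540, C3ar1 at chr6:122847138-122856161, both on the minus strand, and Ltb4r1 on the plus strand at chr14:55765962-55768494. Sequence shared with other genes was counted as the share of a gene's 50-base stretches that also occur in exons of another gene. It came to 31.5% for Fpr2 (shared with Gm5966, Fpr3 and Fpr1), 4.01% for Cxcr2, 0.0784% for Fpr1 and 0 for the other 6. Fpr2 also has 48 exon bases in common with Fpr3 on the same strand, so its reads are the least certain in assignment. Fpr3 itself was listed at 0 in both libraries.

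The letters upstream of the start are shown for the 4 receptors that were at least 2-fold higher in 4T1-GMP and whose RefSeq window lies mostly before the annotated first exon, and for Cxcr4, the one receptor that was lower. The RefSeq windows (GRCm38.p6) run from 250 bases before to 50 bases after the start, and only the part outside annotated exons is printed, 5′ to 3′ on the gene's own strand. C5ar1 is left out because most of its window lies in an annotated exon. The 5 motifs that are known from myeloid transcription and were searched on both strands of the whole windows were TTGCGCAA and its relaxed form TTNNNCAA (C/EBP factors), GAGGAAG (PU.1), GAAANNGAA (interferon response elements) and GGAANNGAA (composite elements of PU.1 and IRF factors), where N is any base. Capitals mark a match to TTNNNCAA or its reverse complement. The stretches come from chr1:74153744-74153988 (plus strand), chr9:123968693-123968942 (minus), chr17:17883941-17884189 (minus), chr17:17887574-17887823 (plus) and chr1:128592300-128592549 (minus).
Cxcr2: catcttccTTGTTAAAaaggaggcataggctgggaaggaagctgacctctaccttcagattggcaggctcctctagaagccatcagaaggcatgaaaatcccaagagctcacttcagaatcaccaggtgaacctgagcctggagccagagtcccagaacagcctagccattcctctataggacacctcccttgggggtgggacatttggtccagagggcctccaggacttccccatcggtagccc
Ccr1: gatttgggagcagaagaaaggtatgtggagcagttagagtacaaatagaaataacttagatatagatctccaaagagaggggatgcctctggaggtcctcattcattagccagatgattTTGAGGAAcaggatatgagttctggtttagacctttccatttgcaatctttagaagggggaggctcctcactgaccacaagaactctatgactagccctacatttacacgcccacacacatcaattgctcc
Fpr1: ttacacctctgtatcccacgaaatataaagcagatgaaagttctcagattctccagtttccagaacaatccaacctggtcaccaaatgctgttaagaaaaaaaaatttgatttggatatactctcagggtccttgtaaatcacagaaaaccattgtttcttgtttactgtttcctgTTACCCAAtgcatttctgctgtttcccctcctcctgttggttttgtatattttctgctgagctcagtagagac
Fpr2: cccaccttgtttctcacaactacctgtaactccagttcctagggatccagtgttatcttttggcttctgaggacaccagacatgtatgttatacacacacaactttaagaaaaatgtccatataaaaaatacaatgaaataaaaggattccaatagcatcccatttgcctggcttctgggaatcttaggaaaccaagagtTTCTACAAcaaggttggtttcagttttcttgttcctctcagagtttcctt
Cxcr4: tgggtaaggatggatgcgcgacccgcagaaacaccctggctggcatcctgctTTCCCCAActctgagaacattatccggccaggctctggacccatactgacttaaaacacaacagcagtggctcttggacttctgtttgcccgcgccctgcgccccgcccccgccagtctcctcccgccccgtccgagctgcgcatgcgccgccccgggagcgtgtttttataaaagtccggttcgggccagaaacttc

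TTNNNCAA was found in the windows of Cxcr2, Ccr1, Fpr1, Fpr2, C5ar1 and Cxcr4 and not in those of Ccrl2, C3ar1 and Ltb4r1. The 6 windows with a match thus include both receptors that were higher in 4T1-GMP and the one that was lower, and the motif is common, with a match for 40.1% of the 27025 genes that have a window. The match began 242 bases before the start in Cxcr2, 131 in Ccr1, 74 in Fpr1, 50 in Fpr2 and 198 in Cxcr4. C5ar1 had matches 157 and 62 bases before the start. The full TTGCGCAA, which 0.207% of genes hold, was in none of the 9 windows. GAGGAAG (15.4% of genes) was found in Ltb4r1, GAAANNGAA (9.76%) in C5ar1 and GGAANNGAA (9.42%) in Fpr2, in the last case 39 bases after the start. A match describes the letters and shows no binding.

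Of the 9 receptors, 5 were at least 2-fold higher in 4T1-GMP, namely C5ar1, Fpr2, Fpr1, Ccr1 and Cxcr2, and 0 were at least 2-fold lower. Among all 10378 tested genes 3.25% were at least 2-fold higher and 4.92% at least 2-fold lower. By any amount, 54.7% of the tested genes were higher in 4T1-GMP. Ltb4r1 and Ccrl2 were higher by less than 2-fold, Cxcr4 was lower by less than 2-fold, and C3ar1 was close to 0 in both libraries. The median log2 ratio of the 8 tested receptors was 2.04, against 0.05 over all tested genes. Ccrl2, Fpr1, Fpr2 and C5ar1 were under 1 RPKM in NTB-GMP and reached the minimum through 4T1-GMP, so their place among the tested genes already favoured a higher value there, and the count and the median are given as a description only. Counts and medians of the lists below share this limit where a tested gene was under 1 RPKM in 1 library. With a minimum mean RPKM of 5, which keeps Cxcr2, Cxcr4 and Ltb4r1, 1 of 3 receptors was at least 2-fold higher and the median was 0.27. Ratios are 4T1-GMP over NTB-GMP, log2 ratios are of RPKM + 0.1, which understates the change of low genes, and folds are ratios of the RPKM themselves.

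**Figure D1:**
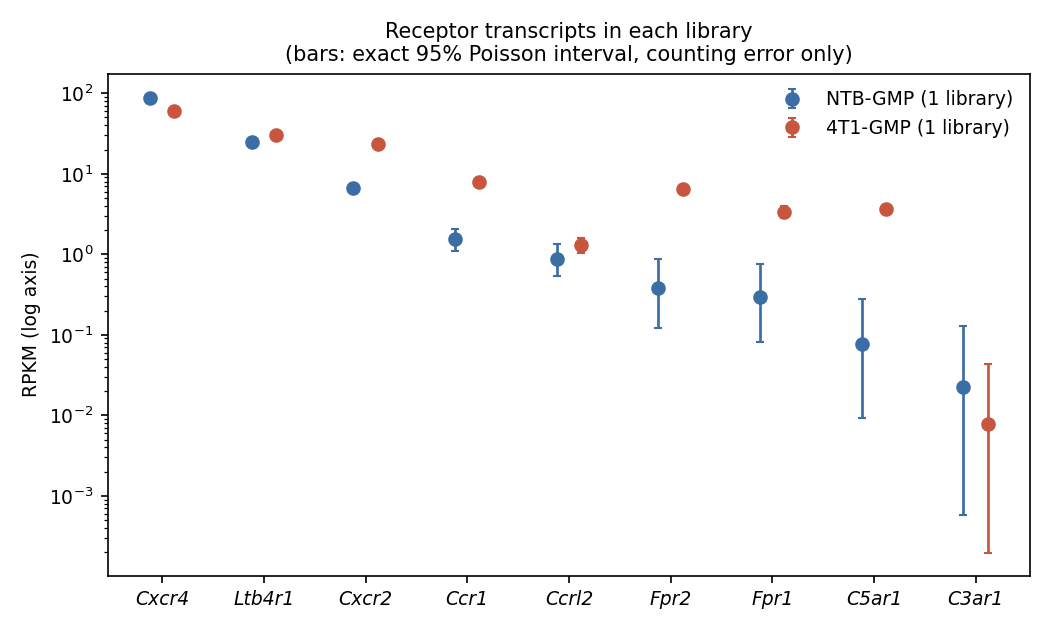
RPKM of each receptor in the NTB-GMP and the 4T1-GMP library on a log axis, 1 library per group, with exact 95% Poisson intervals on the reads. Cxcr4 and Ltb4r1 lead in both libraries, while Fpr1, Fpr2 and C5ar1 lie under 1 RPKM in NTB-GMP and at 3.35, 6.48 and 3.68 RPKM in 4T1-GMP.

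Reads behind these values were recovered from the RPKM, 9500912 in NTB-GMP and 26391420 in 4T1-GMP, so the control library is the shallower one and sets the width of most intervals. All intervals are 95% intervals on reads (exact Poisson for a level, Clopper-Pearson for a ratio, exact conditional odds ratio for a ratio of ratios). They account for counting alone, since PCR copies were not resolved by molecular identifiers, and say nothing of the spread between mice. The limit that a count of 0 allows was set at 3 reads. A gene level in bulk RNA can change through the share of cells that express it or through RNA per cell, and these cannot be told apart here. The GMP label was checked against genes of the gate and lineage. Mpo and Elane, granule enzymes of GMPs, stood at 5160 and 1850 RPKM in NTB-GMP and at 5620 and 2940 RPKM in 4T1-GMP. Kit, a receptor of progenitors, went from 78.5 to 49.1 RPKM, Cd34 from 154 to 59.4 RPKM and Fcgr3 (CD16) from 53.1 to 28.6 RPKM. Fcgr2b (CD32), the other gene of the CD16/32 gate, went from 47.3 to 64.6 RPKM, and Ly6a (Sca-1), for which the GMP gate is negative, had 0 and 4 reads. The markers of the label were therefore present in both libraries, with Kit, Cd34 and Fcgr3 lower and Fcgr2b higher in 4T1-GMP.

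Cxcr4 had the highest level of the 9 receptors in both libraries. Its level was 87.0 RPKM in NTB-GMP (interval 82.8 to 91.4 RPKM, 1607 reads) against 60.8 RPKM in 4T1-GMP (58.7 to 62.9 RPKM, 3310 reads). This was a log2 ratio of -0.52, or a level 1.43-fold higher in the control, and 13.6% of tested genes had a lower ratio. Cxcr2 had 6.59 RPKM in NTB-GMP (5.71 to 7.55 RPKM, 204 reads) against 23.1 RPKM in 4T1-GMP (22.1 to 24.1 RPKM, 2106 reads). The Cxcr2 level was thus 3.5-fold higher in 4T1-GMP (3.03 to 4.06), a log2 ratio of 1.79 that exceeded that of 98.9% of tested genes. The marrow-retaining and the marrow-leaving receptor therefore differed in opposite directions between the libraries. Within a library the ratio of the 2 genes does not depend on library size, and Cxcr4 RPKM was 13.2 times that of Cxcr2 in NTB-GMP and 2.64 times in 4T1-GMP. The ratio of these ratios was 5.01 (4.28 to 5.88). Cxcr4 made up 71.4% of the summed RPKM of the 9 receptors in NTB-GMP and 44.5% in 4T1-GMP, and Cxcr2 5.41% and 16.9%.

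Ccr1, a receptor of Ccl3, Ccl5 and, in mice, Ccl6 and Ccl9, was low in NTB-GMP, with 1.53 RPKM (1.11 to 2.05 RPKM, 44 reads). In 4T1-GMP it had 7.79 RPKM (7.21 to 8.41 RPKM, 662 reads), which is 5.1-fold higher (3.76 to 7.09), with a log2 ratio of 2.28. Ccr1 belongs to a cluster of chemokine receptor genes on chromosome 9, and its annotated neighbours Cxcr6, Xcr1, Ccr1l1 and Ccr3 were each at or under 0.243 RPKM in both libraries. The atypical receptor Ccrl2 had 0.874 RPKM in NTB-GMP (0.534 to 1.35 RPKM, 20 reads) against 1.3 RPKM in 4T1-GMP (1.05 to 1.61 RPKM, 88 reads). Its ratio of 1.49 had an interval of 0.91 to 2.56, so a difference in Ccrl2 was not detectable at this depth. The length behind the Ccrl2 values, 2249 bases, is also shorter than the 2598 bases of its annotated exons, whereas the lengths of the other 8 receptors lay within a few bases of the annotation. The Ccr1 ratio was 3.42 times the Ccrl2 ratio (1.82 to 6.23). Ltf, the lactoferrin gene of neutrophil granules 11.7 kb from Ccrl2, went from 11.1 to 42 RPKM.

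**Figure D2:**
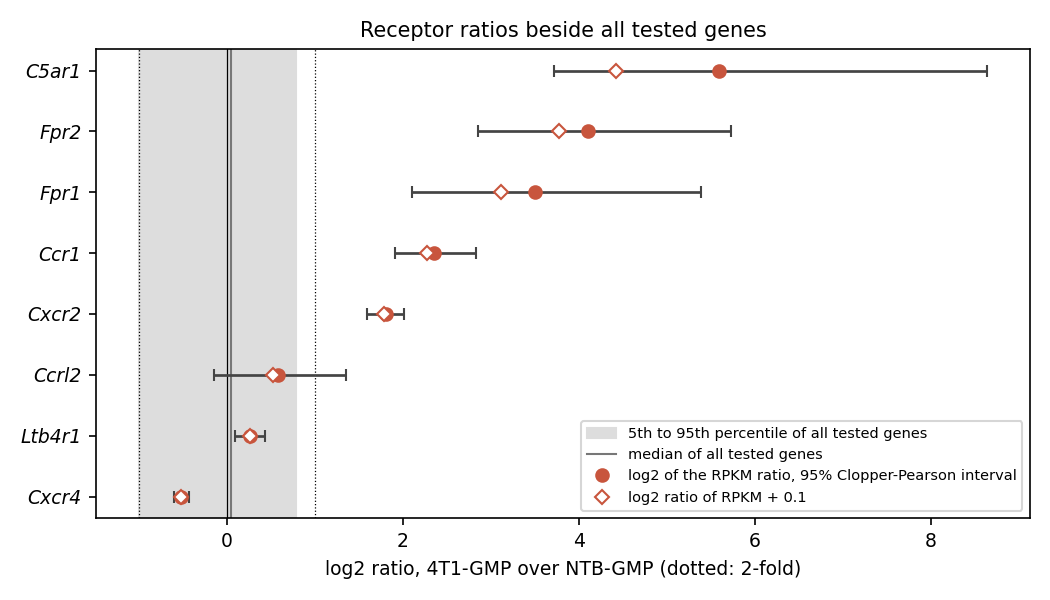
Ratio of 4T1-GMP over NTB-GMP on the log2 scale for the 8 tested receptors. Filled points are the log2 ratio of the RPKM with its 95% Clopper-Pearson interval, open diamonds the log2 ratio of RPKM + 0.1, the grey band the 5th to 95th percentile (-0.99 to 0.79) of all tested genes, and dotted lines 2-fold. The intervals of C5ar1, Fpr2, Fpr1, Ccr1 and Cxcr2 lie wholly to the right of the band, those of Ltb4r1 and Cxcr4 wholly within it, and that of Ccrl2 spans 0.

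Both formyl peptide receptors were barely detected in NTB-GMP. Fpr1 had 0.297 RPKM there (0.0809 to 0.76 RPKM, 4 reads) and 3.35 RPKM in 4T1-GMP (2.8 to 3.97 RPKM, 133 reads). Fpr2 had 0.379 RPKM in NTB-GMP (0.123 to 0.884 RPKM, 5 reads) against 6.48 RPKM in 4T1-GMP (5.7 to 7.33 RPKM, 252 reads). The 2 neighbouring genes were thus both higher in 4T1-GMP, Fpr1 by 11.3-fold (4.3 to 42.0) and Fpr2 by 17.1-fold (7.23 to 53.1), and the low control counts make both intervals wide. The Fpr1 ratio was 0.66 times the Fpr2 ratio, with an interval of 0.14 to 3.39 that does not tell them apart. Of the related receptors Fpr3, Fpr-rs3, Fpr-rs4 and Fpr-rs6, each was listed at 0 in both libraries. Anxa1, a protein ligand of this family, was abundant in both, at 101 and 129 RPKM (log2 ratio 0.36).

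C5ar1 had the highest ratio of the 9 receptors. Only 2 reads were recovered in NTB-GMP, fewer than the limit of 3 reads, for a level of 0.0764 RPKM (0.00926 to 0.276 RPKM), against 284 reads and 3.68 RPKM in 4T1-GMP (3.27 to 4.14 RPKM). The ratio of 48.2 had a counting interval of 13.2 to 400, and the log2 ratio of RPKM + 0.1 was 4.42. The high end of that interval rests on the 2 control reads, and the interval overlaps those of Fpr2 (7.23 to 53.1) and Fpr1 (4.3 to 42.0). With a pseudocount of 1 the log2 ratio of Fpr2 (2.44) was above that of C5ar1 (2.12), so their order is not settled. C5ar2, the second C5a receptor, lies 2.59 kb from C5ar1 and had 0.552 and 0.702 RPKM (20 and 75 reads), an interval of -0.38 to 1.14 on the log2 scale that includes 0. C3ar1, the receptor of the fragment C3a, had 1 read in each library and stayed below the limit in both, so no fold is given. The complement receptors therefore differed in that C5ar1 alone reached 1 RPKM, and only in 4T1-GMP. C3, the source of C3a, was itself transcribed in both libraries, at 37.1 and 58.4 RPKM (log2 ratio 0.65), whereas Hc, which encodes C5, had 1 read in each.

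Ltb4r1, the high-affinity receptor of leukotriene B4, was the second most abundant of the 9. It had 25.1 RPKM in NTB-GMP (22.5 to 27.8 RPKM, 355 reads) against 30.2 RPKM in 4T1-GMP (28.5 to 31.9 RPKM, 1260 reads), a ratio of 1.2 (1.07 to 1.36). The log2 ratio of 0.27 was higher than that of 70.3% of tested genes, and the C5ar1 ratio was 40 times the Ltb4r1 ratio, with an interval of 10.9 to 333 that rests on the 2 control reads of C5ar1. In all, 5 pairs of receptors were compared, and the pair of C5ar1 and C3ar1 is given by its reads alone. Ltb4r2, the low-affinity receptor 0.824 kb away, had 6 and 3 reads. The enzymes that make the ligand were transcribed in both libraries. Alox5, the lipoxygenase of the pathway, had 10.3 and 6.2 RPKM (log2 ratio -0.73), its partner Alox5ap 93.4 and 118 RPKM (0.34), and Lta4h, which makes leukotriene B4, 272 and 418 RPKM (0.62).

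The summed RPKM of the 9 receptors were close in the libraries, at 121.8 in NTB-GMP and 136.6 in 4T1-GMP, while the makeup of the sum differed. Cxcr4 and Ltb4r1, high in both, held most of the sum in NTB-GMP. The remaining 7 receptors came to 9.76 RPKM in NTB-GMP against 45.7 RPKM in 4T1-GMP, or 8.01% and 33.4% of the sum. The order of the levels in NTB-GMP was Cxcr4, Ltb4r1, Cxcr2, Ccr1, Ccrl2, Fpr2, Fpr1, C5ar1 and C3ar1, in which the intervals of Ccr1 and Ccrl2, of Ccrl2 and Fpr2, of Fpr2 and Fpr1, of Fpr1 and C5ar1 and of C5ar1 and C3ar1 overlap. In 4T1-GMP the order was Cxcr4, Ltb4r1, Cxcr2, Ccr1, Fpr2, C5ar1, Fpr1, Ccrl2 and C3ar1, and the intervals overlap only for Ccr1 and Fpr2 and for C5ar1 and Fpr1.

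The other receptors of the same classes were mostly under the minimum for testing. Of 20 other chemokine receptors, 8 were listed at 0 in both libraries and 2 were tested. Both tested genes, receptors known from monocytes, were lower in 4T1-GMP, Ccr2 from 17.1 to 10.2 RPKM (log2 ratio -0.73) and Cx3cr1 from 3.72 to 0.994 RPKM (-1.80). Cxcr1, a relative of Cxcr2 and its neighbour at 30.5 kb, is named here after its values were seen: it had 0 reads in NTB-GMP and 31 reads (0.919 RPKM) in 4T1-GMP, at least 3.5-fold higher against a limit of 3 reads. Of 27 other chemoattractant receptors 25 were in the tables and 8 were tested, with a median log2 ratio of 0.16. Of these 8, 1 was at least 2-fold higher (3.25% of all tested genes) and 2 at least 2-fold lower (4.92%). The one that was higher, Gpr84, a receptor of medium-chain fatty acids on activated phagocytes, went from 0 reads to 3.59 RPKM (167 reads), at least 18.9-fold. Gpr84 thus reached the minimum through 4T1-GMP. The receptors that were lower were Gpr183, an oxysterol receptor (2.00 and 0.396 RPKM, log2 ratio -2.08), and P2ry14, a receptor of UDP sugars (5.20 and 1.63 RPKM, -1.61). S1pr2 (0.66), Ffar2 (0.51) and S1pr4 (-0.30) lay within 2-fold. Ptafr, the receptor of platelet-activating factor, was under the minimum and is also named after its values were seen, with 0 reads in NTB-GMP and 79 reads (1.45 RPKM) in 4T1-GMP, at least 8.93-fold higher.

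**Figure D3:**
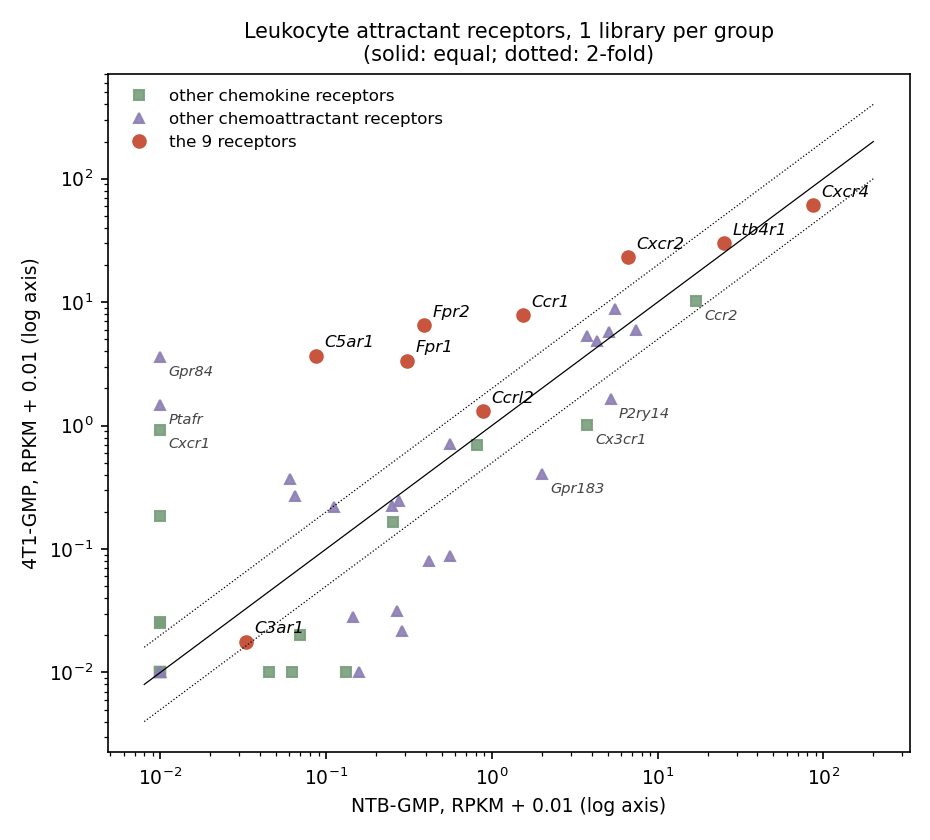
RPKM + 0.01 in NTB-GMP (horizontal) and 4T1-GMP (vertical), both on log axes, for the 9 receptors and the other chemokine and chemoattractant receptors, with 1 library per group. The solid line marks equal levels and the dotted lines 2-fold. C5ar1, Fpr1, Fpr2, Ccr1 and Cxcr2 lie above the upper dotted line, and Gpr84, Ptafr and Cxcr1 lie on the left edge, at 0 in NTB-GMP.

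The ligands were for the most part under the minimum too. Of 36 chemokine ligands, 15 were listed at 0 in both libraries and 3 were tested, with 0 past 2-fold in either direction. Cxcl1, Cxcl3 and Cxcl5, ligands of Cxcr2, were at 0 in both, Cxcl2 had 0 and 3 reads, and Cxcl12, the ligand of Cxcr4, had 0 and 1 read. The ligands tested were Ccl6 (4.93 and 9.72 RPKM, log2 ratio 0.97), Ccl9 (36.8 and 33.6 RPKM, -0.13) and Ccl25 (-0.66), so 2 ligands of Ccr1 were present in both libraries. Among 14 other attractants and the enzymes that make or degrade attractants 9 were tested, with a median log2 ratio of 0.36. Of these 9, 2 were at least 2-fold higher (3.25% of all tested genes) and 1 at least 2-fold lower (4.92%). Saa3, an acute-phase protein, had 1 read in NTB-GMP (0.185 RPKM) and 174 reads in 4T1-GMP (10.9 RPKM), with an interval of 3.39 to 11.19 on the log2 scale. Camp, the cathelicidin of neutrophil granules, had a log2 ratio of 1.33, and Dpp4, a protease that cleaves Cxcl12, was lower (4.49 and 1.26 RPKM, -1.76).

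Genes that carry or limit the signal of signalling receptors of this kind were read out as well. Of 28 G protein, kinase, arrestin and RGS genes 22 were tested, 10 higher and 12 lower, with 0 at least 2-fold higher, 2 at least 2-fold lower and a median log2 ratio of -0.05 that turned to 0.03 with all recovered reads as library sizes. Gnai2, the main inhibitory G protein alpha subunit of leukocytes, had 152 and 171 RPKM (0.17). Arrb2, a beta-arrestin, Gng5 and Gnai3 had the highest ratios (0.61, 0.52 and 0.50). Rgs1, which shortens chemokine receptor signals, was lower (4.58 and 0.902 RPKM, -2.22), as were the beta subunit Gnb4 (5.21 and 1.24 RPKM, -1.99) and the gamma subunit Gng2 (-0.93). All 32 effectors of chemotaxis signalling were tested, 25 higher and 7 lower, with 4 at least 2-fold higher, 0 at least 2-fold lower and a median of 0.17. For both lists the share over all tested genes was 54.7% higher, 3.25% at least 2-fold higher and 4.92% at least 2-fold lower. Among the effectors the Src-family kinase Fgr led, with 0.265 RPKM in NTB-GMP (9 reads) against 5.66 RPKM in 4T1-GMP (568 reads). Its log2 ratio was 3.98, and it reached the minimum through 4T1-GMP. Also at least 2-fold higher were Pik3r5, the adaptor of phosphoinositide 3-kinase gamma (3.65 and 8.61 RPKM, 1.22), and Itgb2, the integrin beta chain of leukocytes (12.5 and 25.9 RPKM, 1.05). Itgal (-0.72), Elmo1 (-0.69) and Prex1 (-0.68) had the lowest ratios of the list.

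**Figure D4:**
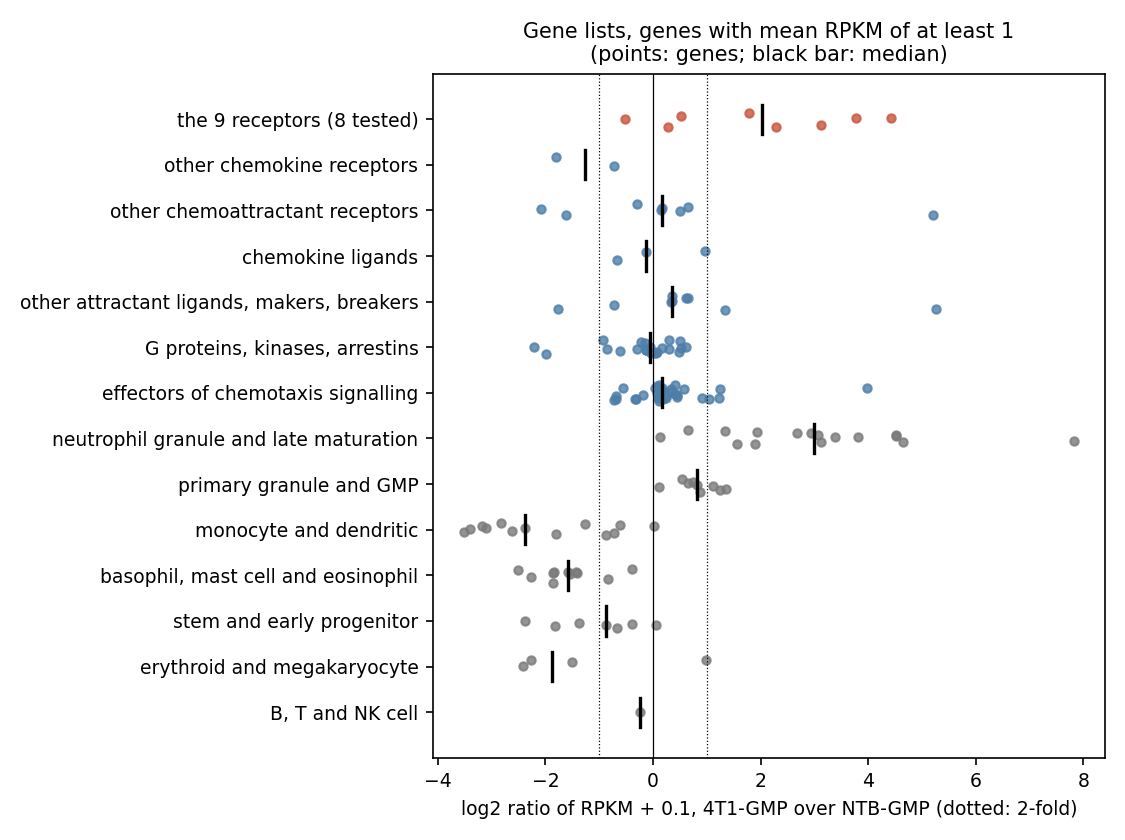
Log2 ratios of RPKM + 0.1, 4T1-GMP over NTB-GMP, for the 8 tested receptors (red), the 6 lists of related genes (blue) and the 7 lists of cell type markers (grey). Each point is a gene with a mean RPKM of at least 1, black bars are medians and dotted lines 2-fold. The median of the receptors (2.04) lies above that of every list of related genes and below that of the neutrophil granule and late maturation markers (3). With a minimum mean RPKM of 5 the receptor median was 0.27 and no longer above every list of related genes (chemokine ligands 0.42).

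Markers of other stages and lineages moved between the same libraries, and their part in the receptor values was not tested. Of 17 markers of neutrophil granules and late maturation, 16 were tested. All 16 were higher in 4T1-GMP, 14 of them at least 2-fold, with a median log2 ratio of 3. Of all tested genes, 54.7% were higher and 3.25% at least 2-fold higher. Mmp8, Mmp9, Ly6g, Olfm4, Stfa2 and Cd101 were under 1 RPKM in NTB-GMP and reached the minimum through 4T1-GMP. The counts and the median of this list are therefore a description only. The summed level of the list was 518 RPKM in NTB-GMP against 4092 RPKM in 4T1-GMP. S100a8 and S100a9, the calprotectin subunits, went from 208 to 1590 RPKM and from 189 to 1970 RPKM. Ly6g, the surface marker of mature mouse neutrophils, went from 0.426 to 4.30 RPKM (4 and 119 reads), Mmp8 from 0.521 to 14.1 RPKM, and Stfa2 and Cd101 from 0 reads to 287 and 235 reads, at least 32.4-fold and 26.6-fold. Cxcr2, Fpr1, Fpr2 and C5ar1, which are also known from mature neutrophils, were higher in the same library as these markers. In that library Ltb4r1 was higher by 1.2-fold (log2 ratio 0.27) and Cxcr4 was lower (-0.52). A link between receptors and markers was not tested. Primary granule and GMP markers were also higher in 9 of 9 tested genes, 3 of them at least 2-fold, with a median of 0.82.

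Markers of other lineages went the other way, while 54.7% of all tested genes were higher and 4.92% were at least 2-fold lower. Monocyte and dendritic markers were lower in 12 of 13 tested genes, 9 of them at least 2-fold, with a median of -2.38 and a sum of 331.9 and 128.1 RPKM. Among them Irf8, a transcription factor of monocytes and dendritic cells, went from 32 to 4.45 RPKM (-2.82). Ccr2 and Cx3cr1, the 2 tested receptors of the wider chemokine family, also belong to that marker list. Basophil, mast cell and eosinophil markers were lower in 11 of 11 tested genes (median -1.58, sum 1892 and 669.9 RPKM), and stem and early progenitor markers in 6 of 7 (median -0.88, sum 279 and 130.4 RPKM). Of the erythroid and megakaryocyte markers 3 of 4 tested genes were lower (median -1.89), and the sum of 59.25 and 79.46 RPKM followed Tfrc, which had 36.6 and 73 RPKM. Only 1 of 16 B, T and NK cell markers was tested, Cd79b (-0.24), with a sum of 17.09 and 15.15 RPKM for the list. The adult globin gene Hba-a1, the mast cell protease Mcpt4 and the T cell gene Cd3g were listed at 0 in both libraries.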

How the data were processed

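Bone marrow GMPs were profiled by bulk RNA-seq, 1 library from NTB mice and 1 from 4T1-bearing mice. The authors deposited RPKM, 1 value per symbol. The submitters' processing notes name CASAVA 1.8.2, cutadapt 1.2.1, TopHat2 2.0.13, Picard 1.97, HTSeq 0.6.1, edgeR 3.12.1 and mm10, with no roles. Strandedness is not given in the sources used here.

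Read counts were worked back from the deposited RPKM, with divisors of 10180365.24 (NTB-GMP) and 30016262.80 (4T1-GMP). On simulated libraries of 3000 genes this gave the right ratio for 100% of genes and the right counts for 83.4%. Elsewhere a shared factor was lost, so the counts are lower bounds. Where annotated exons were an exact multiple of the recovered length (86 symbols, C5ar1 among them) reads were scaled to it.

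Log2 ratios used a pseudocount of 0.1, over genes whose mean RPKM reached 1. The genes and lists were chosen with earlier results of these data known. Named were the 9 receptors, up to 3 highest and 3 lowest ratios per list, genes of the sort and defining markers at 0, except 1 gene that is not reported here. Other genes named as ligands, enzymes, neighbours or markers of a list were added for their role after their values were seen. Alternatives were pseudocounts of 1 and 0.01, no minimum or a minimum of 5, and other scalings. Python 3.11.15, numpy 2.4.6, pandas 2.3.3, scipy 1.17.1 and matplotlib 3.10.9 were used.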

Additional observations from a re-analysis of the deposited data

How the results depend on the processing

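The counts of receptors that were higher, lower and at least 2-fold higher or lower did not change under other pseudocounts, median centring, quantile normalization, TMM-like scaling, or with reads without Rn45s, the ribosomal RNA precursor, or all recovered reads as library sizes, and under these the median over the tested receptors ran from 1.71 to 2.12. All recovered reads, and other minimums for the receptors, were chosen after seeing the data. A minimum of 5 left 3 receptors, of which 2 were higher, 1 lower and 1 at least 2-fold higher, with a median of 0.27. Without a minimum 2 of 9 were lower (Cxcr4 and C3ar1). Rn45s took 18.2% of recovered reads in NTB-GMP and 7.93% in 4T1-GMP, and the scalings without it and by all recovered reads moved log2 ratios taken without a pseudocount by -0.08 and 0.09, and those of RPKM + 0.1 by less for low genes. Of 63 receptor values, 58 stayed within their counting interval and none changed sign. The tally includes C3ar1, whose log2 interval of -7.85 to 4.73 is too wide for any of these settings to leave. Cxcr4 came to -0.72 under quantile normalization, and Ccr1, Fpr1, Fpr2 and C5ar1 to 1.8, 1.75, 2.44 and 2.12 with a pseudocount of 1, by construction a shrinkage of low genes. C5ar1 ranged from 2.12 to 5.42. Over all genes, 337 at least 2-fold higher became 734 without a minimum and 170 with a minimum of 5, and 511 lower became 1246, 181 and, with a pseudocount of 1, 299. The share of genes higher in 4T1-GMP ran from 46.7% to 62.4%. Of 117 list medians 4 changed sign: chemokine ligands from -0.13 to 0.42 (minimum of 5), other chemoattractant receptors from 0.16 to -0.11 and B, T and NK cell markers from -0.24 to 0.10 (no minimum), and the G protein list from -0.05 to 0.03 (all recovered reads). Of 234 list counts, 213 stayed within 1.5 times. The count of chemokine ligands at least 2-fold higher became 1 with quantile normalization and with all recovered reads. That of effectors went from 4 to 3 with reads without Rn45s and with quantile normalization. No paired analysis was possible because there was a single library for NTB-GMP and for 4T1-GMP, which also leaves no replicate to drop. The 4, 5 and 2 reads of Fpr1, Fpr2 and C5ar1 in NTB-GMP limit how closely their ratios are known.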
